A study of Mus musculus with 12 samples.

Results

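The genes described here run mitosis and chromosome segregation. The list names 47 genes by role, and a gene was read from the array row that carried its symbol alone, with the brightest row over the 12 arrays taken where a gene had several. By this rule 46 of the 47 were found among 19938 measured genes. Ccnb1, a cyclin of mitotic entry, was not analysed here.

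Whole livers of 12 fed male C57BL/6J mice, labelled as 8 weeks old, were each profiled on 1 Affymetrix mouse gene array. An adenovirus injected in the tail vein carried GFP, the control protein, in 6 mice and ChREBP, the product of Mlxipl and a transcription factor that responds to glucose, in the other 6, and livers were studied 3 weeks later. Both groups therefore carried a virus, and no liver without one was compared here. The labels call the overexpression liver-specific, but the promoter of these vectors, the injected dose in readable form, and the species and isoform of ChREBP were not stated in what was read here. The labels describe the mice as biological replicates.

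Values are RMA values on the log2 scale, so that a difference of 1 is a doubling, and every difference is ChREBP minus GFP. Mlxipl, which checks the labels, was 9.32 in GFP livers and 10.89 in ChREBP livers, with 10.74 on the lowest ChREBP array and 9.61 on the highest GFP array. The tissue label was checked against hepatocyte markers, of which all 9 lay above the median of all gene values (6.33) in GFP livers, with Alb at 13.12 in GFP and 13.05 in ChREBP livers. Array medians over the measured genes ran from 6.27 to 6.36 in GFP and from 6.33 to 6.39 in ChREBP livers. Arrays correlated at 0.981 to 0.997 within a group and at 0.964 to 0.983 between groups. In whole liver, more cells of a dividing type and more RNA per cell cannot be told apart.

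Cells enter mitosis when the kinase Cdk1, paired with cyclins, becomes active. Condensins then compact the chromosomes, the spindle captures them at their kinetochores, a checkpoint holds the cell until every chromosome is attached, and the anaphase promoting complex and cytokinesis complete the division. In adult liver most hepatocytes rest outside the cycle, but they can re-enter it after tissue loss or a strong growth stimulus, and many are polyploid because cytokinesis or mitosis was left out.

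Nearly the whole mitotic set was higher in ChREBP livers. Of the 46 genes, 44 (95.7%) rose, 0 fell, and 2, Ccnf and Kif18b, did not reach an adjusted p under 0.05 in limma. Among all 19938 genes, 13.3% rose and 13.7% fell in the same fit. The median difference of the 46 was 1.05, or 2.08-fold, with the middle of the set between 0.79 and 1.48, whereas the median over all genes was -0.04. The 44 rises ran from 0.30 for Cdca5 (1.23-fold) to 1.99 for Top2a (3.96-fold), with adjusted p between 7.94e-09 and 0.00393 in limma.

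Many of these rises were large. Counting genes up by 1.5-fold or more whose limma p was under 0.05 before adjustment gave 40 of the 46, against 4.10% of all genes. A rise of at least 2-fold with an adjusted p under 0.05 was reached by 26, against 1.59% of all genes. At least 3-fold was reached by 10 members under the same test, against 123 of all 19938 genes. In 44 members all ChREBP arrays exceeded all GFP arrays, which was so in 8.33% of all genes. Among these 44, the gap between the lowest ChREBP and the highest GFP array was smallest for Cdca5 (0.03) and largest for Birc5 (1.37), with a median of 0.69. Signals were low in control liver, where 38 of the 46 had a mean below the median of all gene values, and detection calls were not used.

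**Figure D1:**
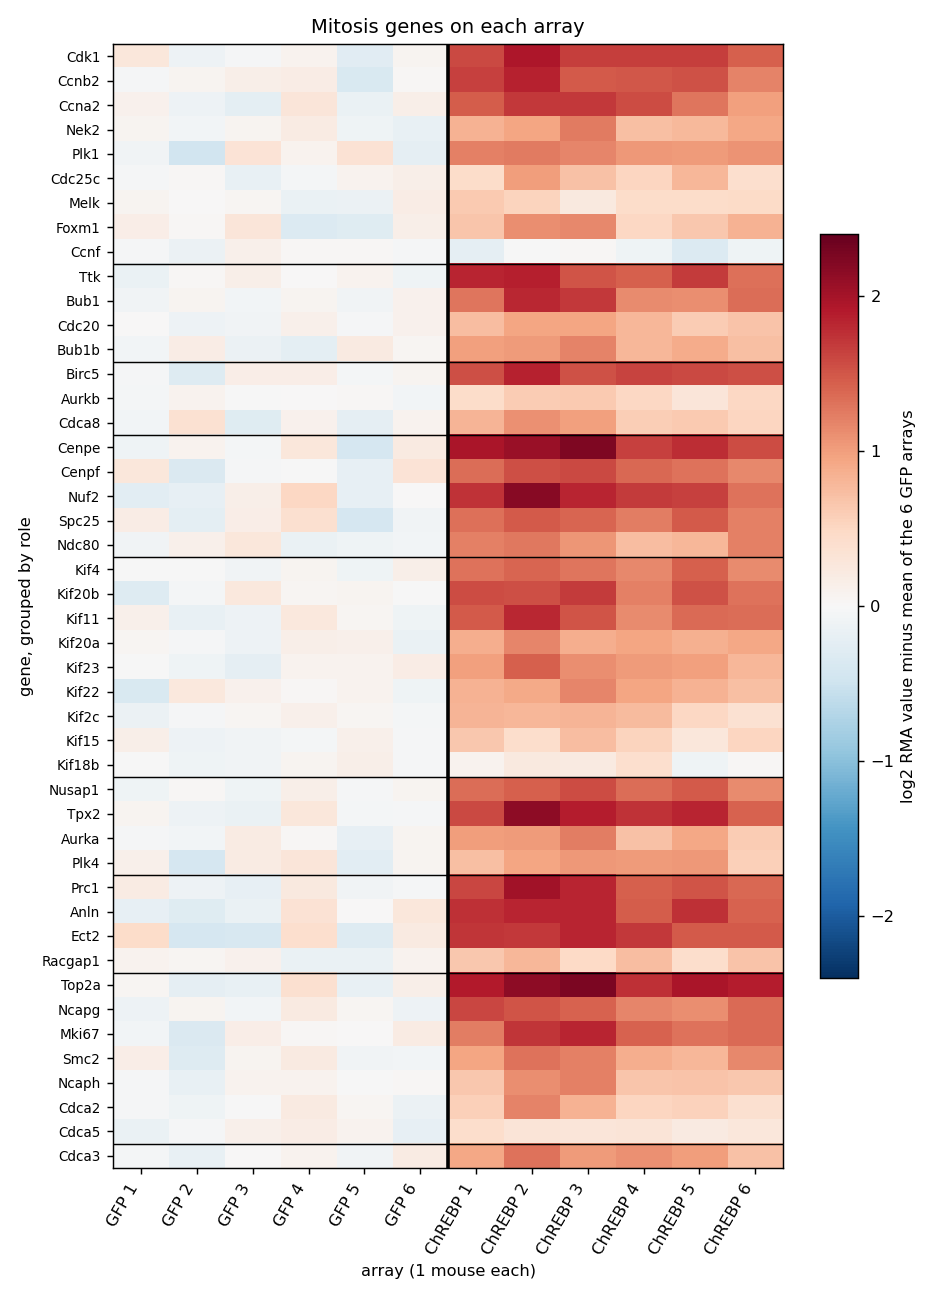
Each cell is the RMA value (log2) of 1 mitosis gene on 1 array minus the mean of that gene over the 6 GFP arrays, with genes in rows grouped by role (thin lines), arrays in columns, and red for higher and blue for lower values. The 6 ChREBP columns are red in all rows but Ccnf and Kif18b, and deepest for Top2a (difference 1.99) and Cenpe (1.88).

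The map of values by array shows that the rise was shared by all 6 ChREBP livers. The median of the 46 genes over the GFP mean was 1.10, 1.30, 1.22, 1.03, 1.01 and 1.04 on ChREBP arrays 1 to 6. The livers nevertheless kept an order, since ChREBP 2 was the highest of its group in 20 genes and ChREBP 3 in 19, while ChREBP 6 was the lowest in 25 and ChREBP 5 in 12. ChREBP 2 lay above its group mean in 45 of the 46 genes and ChREBP 6 in 6. Over all genes, the median deviation of an array from its own group mean ran from -0.03 to 0.02. The normalization in RMA holds this value near 0 in advance, so it cannot show whether the order was particular to these genes. Among controls, GFP 4 was the highest in 21 genes and GFP 2 the lowest in 16. The SD was larger in ChREBP than in GFP livers for 29 of the 46, with median SDs of 0.19 and 0.16.

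Promoters of mitotic genes are known for a CCAAT box, which binds NF-Y, and for the cell cycle genes homology region (CHR), which binds the repressive DREAM complex in resting cells and, in dividing cells, the B-Myb complex, which recruits Foxm1. RefSeq promoter windows of assembly GRCm38.p6, with 250 bases before and 50 after a gene start, were found for 39 of the 46 members, in 41 windows because Ect2 and Prc1 have 2 each. The windows are shown because nearly all members rose. The first 4 are those of the members with the smallest p in their role among holders of both motifs, and the last 2 those of the members that did not pass. Each is given 5′ to 3′ from 150 bases before to 30 after the start, with CCAAT or its reverse ATTGG and the CHR letters TTTGAA or TTCAAA in capitals. Kif4 lies at chrX:100625915-100626094 (plus strand), Top2a at chr11:99024160-99024339 (minus strand), Cdk1 at chr10:69352883-69353062 (minus strand), Ttk at chr9:83834539-83834718 (plus strand), Ccnf at chr17:24251380-24251559 (minus strand) and Kif18b at chr11:102925095-102925274 (minus strand).
Kif4: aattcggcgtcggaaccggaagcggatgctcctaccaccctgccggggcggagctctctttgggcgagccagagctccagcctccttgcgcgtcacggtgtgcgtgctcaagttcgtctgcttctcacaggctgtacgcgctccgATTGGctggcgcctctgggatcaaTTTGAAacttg
Top2a: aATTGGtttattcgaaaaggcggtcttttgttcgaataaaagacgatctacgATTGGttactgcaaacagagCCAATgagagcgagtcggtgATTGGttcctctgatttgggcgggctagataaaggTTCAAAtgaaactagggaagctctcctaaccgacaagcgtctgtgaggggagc
Cdk1: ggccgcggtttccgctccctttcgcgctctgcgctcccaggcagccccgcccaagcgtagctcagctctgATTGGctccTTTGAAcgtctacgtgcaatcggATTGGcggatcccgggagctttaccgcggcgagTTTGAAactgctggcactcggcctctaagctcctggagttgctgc
Ttk: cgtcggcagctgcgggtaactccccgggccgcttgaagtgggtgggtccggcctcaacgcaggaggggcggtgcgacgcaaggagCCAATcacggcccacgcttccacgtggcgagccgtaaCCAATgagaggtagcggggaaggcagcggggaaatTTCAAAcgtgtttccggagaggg
Ccnf: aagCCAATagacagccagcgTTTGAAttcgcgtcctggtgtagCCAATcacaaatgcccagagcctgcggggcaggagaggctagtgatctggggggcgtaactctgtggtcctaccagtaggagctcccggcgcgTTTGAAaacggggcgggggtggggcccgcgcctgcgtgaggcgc
Kif18b: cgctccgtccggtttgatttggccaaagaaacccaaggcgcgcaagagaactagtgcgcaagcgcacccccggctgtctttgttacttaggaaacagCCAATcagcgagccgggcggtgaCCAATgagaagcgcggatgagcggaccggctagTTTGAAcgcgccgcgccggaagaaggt

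The CHR letters stood in 32 of the 41 member windows (78.0%), against 17.9% of the 32851 windows of all 27025 genes in the promoter table. CCAAT or ATTGG stood in 29 windows (70.7%, against 37.4%), and both motifs together in 26 (63.4%, against 6.95%). Neither motif was found in the windows of Nuf2, Nusap1, Ncaph, Plk4, Melk and Birc5, and all 6 of these genes rose. Ccnf and Kif18b, which did not pass, held both. CACGTG, the core of the E-box, stood in the windows of Ttk and Anln alone (4.88%, against 7.15% of all windows). The longer element that ChREBP binds was not searched for, so these shares do not describe it. These matches describe letters in a window and are neither binding sites nor causes.

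The CHR letters clustered at the gene start. They began within 50 bases on either side of the start in 30 of 41 member windows (73.2%), against 4.94% of all windows. A CCAAT or ATTGG began in that zone in 20 member windows (48.8%, against 13.6%). The zone was chosen after the positions were seen.

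**Figure D2:**
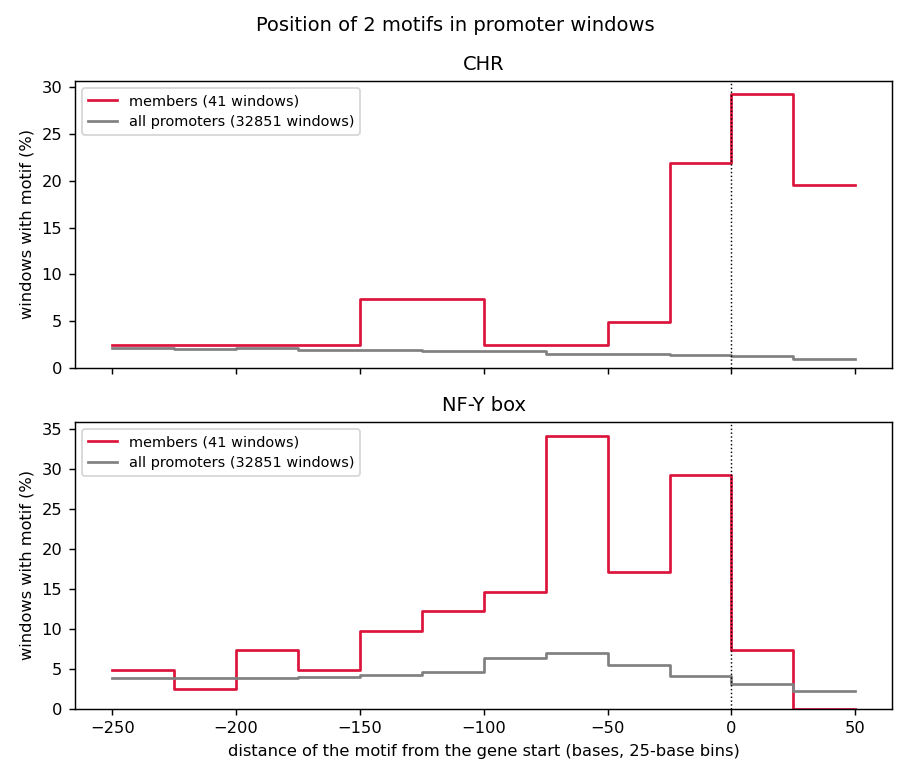
The horizontal axis is the distance in bases of a motif from the gene start, in bins of 25, and the vertical axis the percentage of promoter windows with a motif beginning in that bin, for 41 member windows (red) and all 32851 windows (grey). The upper panel holds the CHR letters, which peak at 29.3% of member windows just after the start, and the lower panel CCAAT or ATTGG (NF-Y box), which peaks at 34.1% between 75 and 50 bases before it.

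The cyclins and kinases of mitotic entry were raised together, with 8 of 9 members past the test and a median difference of 0.91. Cdk1, the kinase that drives the entry, was 6.17, 6.46 and 6.73 (lowest, median and highest array) in GFP livers and 7.88, 8.11 and 8.38 in ChREBP livers. No ChREBP array came within 1.15 of the highest GFP array. Cdk1 rose by 1.65 (SE 0.09, adjusted p = 2.63e-08 in limma), a 3.15-fold difference, and the exact two-sided permutation test over 924 assignments of the arrays gave p = 0.00216, the smallest it can give. Ccnb2, a cyclin partner of Cdk1, was 6.50, 6.92 and 7.05 in GFP and 8.07, 8.38 and 8.72 in ChREBP livers, without overlap, and rose by 1.53 (SE 0.11, adjusted p = 1.67e-07). Ccna2, the cyclin of S phase and early mitosis, rose by 1.45, and Plk1, a kinase that acts from mitotic entry to cytokinesis, by 1.13. Nek2, which separates the centrosomes, rose by 0.91.

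Smaller rises were found for other regulators of entry. Foxm1, a transcription factor that activates many late cell cycle genes, was 4.77, 5.18 and 5.38 in GFP livers and 5.60, 5.84 and 6.26 in ChREBP livers. The groups did not overlap, and Foxm1 rose by 0.82 (SE 0.13, adjusted p = 0.000358 in limma). Cdc25c, the phosphatase that removes inhibitory phosphates from Cdk1, rose by 0.64, and the kinase gene Melk by 0.45. Ccnf, which encodes an F-box protein that marks others for degradation, was the exception. Its values were 5.90, 6.04 and 6.15 in GFP and 5.71, 5.93 and 6.07 in ChREBP livers, overlapping, with a difference of -0.12 (SE 0.06, adjusted p = 0.173). With median centring of each array, this difference was -0.18 and passed (adjusted p = 0.0419).

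All 4 genes of the spindle checkpoint and its release rose, with a median of 1.17. Ttk, the kinase that starts checkpoint signalling at unattached kinetochores, was 5.00, 5.18 and 5.31 in GFP and 6.49, 6.75 and 7.03 in ChREBP livers. Its groups lay far apart, and it rose by 1.60 (SE 0.09, adjusted p = 3.04e-08 in limma). Bub1, a second checkpoint kinase, was 4.77, 4.84 and 4.95 in GFP and 5.96, 6.16 and 6.65 in ChREBP livers, also without overlap, and rose by 1.40 (SE 0.11, adjusted p = 6.47e-07). Bub1b, which restrains the anaphase promoting complex, rose by 0.93, and Cdc20, the activator of that complex, by 0.79.

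The chromosomal passenger complex corrects faulty attachments and later guides cytokinesis. Its 3 members rose unequally. Birc5 (survivin) was 6.46, 6.79 and 6.94 in GFP and 8.31, 8.34 and 8.62 in ChREBP livers, the widest gap of the set, and rose by 1.61 (SE 0.08, adjusted p = 8.99e-09 in limma). Aurkb, the kinase of the complex, was 6.13, 6.21 and 6.29 in GFP and 6.50, 6.70 and 6.84 in ChREBP livers. Its groups did not overlap either, but the rise was 0.49 (SE 0.06, adjusted p = 2.12e-05). Cdca8 (borealin) rose by 0.78.

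Kinetochore genes had the second highest median, 1.39, and all 5 rose. Cenpe, a motor that carries chromosomes to the spindle equator, was 5.10, 5.52 and 5.77 in GFP and 7.07, 7.37 and 7.75 in ChREBP livers. The nearest arrays of the groups lay 1.30 apart, and the rise was 1.88 (SE 0.13, adjusted p = 1.52e-07 in limma), or 3.67-fold. Cenpf, a large protein of the outer kinetochore, was 5.25, 5.58 and 5.92 in GFP and 6.75, 6.96 and 7.19 in ChREBP livers, without overlap, and rose by 1.39 (SE 0.11, adjusted p = 7.12e-07). The Ndc80 complex forms the direct link to microtubules, and its members here, Nuf2, Spc25 and Ndc80, rose by 1.73, 1.35 and 1.05. Spc24, a subunit outside the set that is named to complete the complex, rose by 0.42.

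Kinesins move chromosomes and slide spindle microtubules, and 8 of 9 rose, with a median of 0.94. Kif4, a chromosome-bound kinesin that shapes the anaphase midzone, had the smallest p of the whole set. It was 5.10, 5.19 and 5.34 in GFP and 6.34, 6.49 and 6.64 in ChREBP livers, and rose by 1.29 (SE 0.06, adjusted p = 7.94e-09 in limma). Kif20b, a kinesin of cytokinesis, was 5.39, 5.72 and 5.95 in GFP and 6.90, 7.23 and 7.38 in ChREBP livers, and rose by 1.47 (SE 0.10, adjusted p = 8.93e-08). Neither gene overlapped between groups. Kif11, which pushes the spindle poles apart, rose by 1.44, Kif23, a subunit of centralspindlin, by 1.06, Kif20a by 0.94, Kif22 by 0.90, Kif2c, which takes microtubule ends apart, by 0.67, and Kif15 by 0.52. Kif18b, which limits astral microtubule length, was 5.78, 5.87 and 6.03 in GFP and 5.78, 6.04 and 6.29 in ChREBP livers. Its groups overlapped, and its difference of 0.15 (SE 0.08) had an adjusted p of 0.179.

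The 4 spindle and centrosome genes rose with a median of 1.15. Nusap1, which bundles microtubules near chromosomes, was 5.50, 5.61 and 5.76 in GFP and 6.74, 6.997 and 7.17 in ChREBP livers, and rose by 1.38 (SE 0.07, adjusted p = 8.99e-09 in limma). Tpx2, which nucleates microtubules and activates Aurka, was 5.24, 5.36 and 5.67 in GFP and 6.82, 7.17 and 7.54 in ChREBP livers, and rose by 1.76 (SE 0.11, adjusted p = 5.15e-08). Both separated the groups fully. Aurka itself, the kinase of the spindle poles, rose by 0.92, and Plk4, which controls centriole duplication, by 0.89.

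Cytokinesis genes had the highest median of all roles, 1.64, and all 4 rose. Prc1, which crosslinks the midzone microtubules, was 5.20, 5.34 and 5.62 in GFP and 6.77, 6.95 and 7.41 in ChREBP livers, and rose by 1.63 (SE 0.11, adjusted p = 1.5e-07 in limma). Anln (anillin), a scaffold of the contractile ring, was 4.71, 4.92 and 5.34 in GFP and 6.41, 6.74 and 6.83 in ChREBP livers, and rose by 1.67 (SE 0.12, adjusted p = 1.73e-07). Neither overlapped between groups. Ect2, an exchange factor that acts at the cleavage site, rose by 1.65, whereas Racgap1, the centralspindlin subunit that recruits Ect2, rose by 0.62.

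Among the 7 genes of chromosome structure all rose, with a median of 1.05. Top2a, the topoisomerase that untangles sister chromatids, was 6.34, 6.49 and 6.94 in GFP and 8.31, 8.49 and 8.81 in ChREBP livers. The groups lay 1.37 apart at their nearest arrays, and the rise of 1.99 (SE 0.11, adjusted p = 2.2e-08 in limma) was the largest of the set. A second, dimmer array row for Top2a had means of 3.54 and 3.71, a difference of 0.18 (adjusted p = 0.281 with all rows tested), so that the mean of both rows gave 1.08 in place of 1.99. Mki67, the proliferation antigen that coats mitotic chromosomes, was 5.48, 5.85 and 6.03 in GFP and 7.06, 7.21 and 7.66 in ChREBP livers. It did not overlap between groups and rose by 1.48 (SE 0.11, adjusted p = 4.46e-07 in limma). The exact two-sided permutation test of Mki67 again gave p = 0.00216, as it must for any gene whose groups do not overlap.

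The condensin genes of the set rose too. Ncapg was 5.63, 5.75 and 5.98 in GFP and 6.88, 7.15 and 7.36 in ChREBP livers, without overlap, and rose by 1.36 (SE 0.09, adjusted p = 8.13e-08 in limma). Smc2, the core ATPase shared by both condensins, rose by 1.05 and Ncaph by 0.83. Cdca2, which recruits a phosphatase to anaphase chromatin, rose by 0.67. Cdca5 (sororin), which protects cohesin until anaphase, rose by 0.30, the smallest rise of the set. Cdca3, an adaptor for the degradation of the Cdk1 inhibitor Wee1, belonged to none of these roles and rose by 1.01 (SE 0.09, adjusted p = 1.51e-06).

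**Figure D3:**
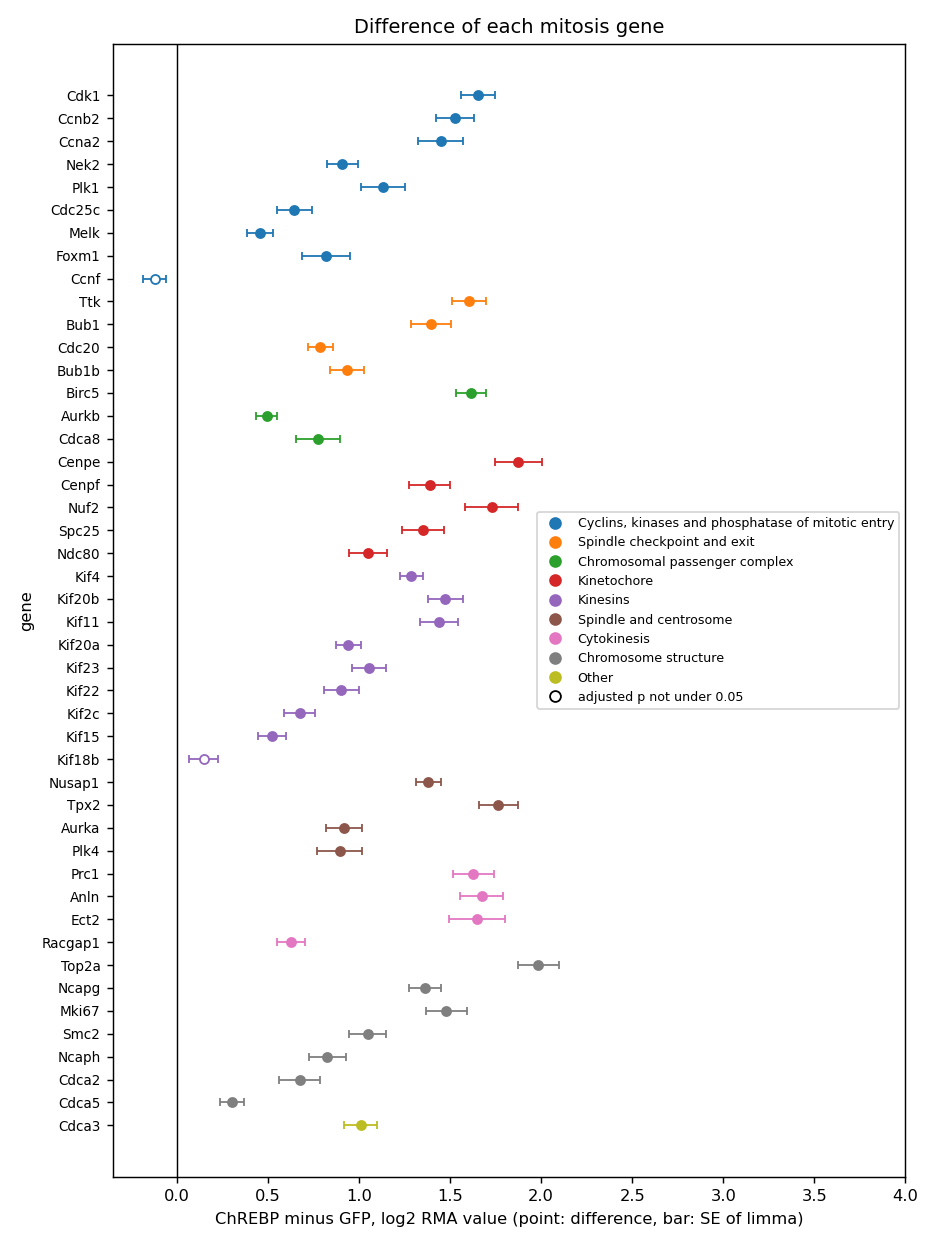
Points are the difference ChREBP minus GFP (RMA value, log2) of each of the 46 genes, bars the SE of limma, and colours the roles, with open points for the 2 genes that did not pass. All points but that of Ccnf lie to the right of 0, and those of cytokinesis, apart from Racgap1, and of the kinetochore lie farthest to the right as groups.

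The plot of differences by gene shows that roles were spread widely within themselves. In cytokinesis, Racgap1 (0.62, SE 0.08) lay below Anln, Prc1 and Ect2 (1.63 to 1.67). In the passenger complex, Aurkb and Birc5 stood at 0.49 and 1.61. These are differences within each gene, and levels were not compared between genes.

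Rises also extended to mitosis genes outside the 46. Of 148 further genes listed by role, 145 were measured, and 82 (56.6%, against 13.3% of all genes) rose, 7 fell and 56 did not pass. Their median difference was 0.27. Ckap2, a spindle protein, rose by 2.76 (SE 0.13, adjusted p = 3.62e-09 in limma), Arhgap11a, listed with cytokinesis, by 1.99, and Stmn1 (stathmin), which destabilises microtubules, by 1.03. Spindle and centrosome genes rose in 19 of 25, cytokinesis genes in 6 of 11, with Shcbp1 at 1.38, and regulators of mitotic entry in 10 of 14. Among the latter were Incenp, the scaffold of the passenger complex, at 0.88, and Wee1, the kinase that inhibits Cdk1, which rose 2.83-fold.

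At the centromere and kinetochore 24 of 30 further genes rose, including Cenph (1.51) and Cenpk (1.15) of the constitutive centromere network. All 5 further condensin subunits rose, with Ncapg2 at 0.86 and Smc4, the partner of Smc2, at 0.74 (SE 0.06, adjusted p = 1.37e-06 in limma). In the checkpoint list 2 of 5 rose, Mad2l1 by 1.74 and Trip13, which recycles Mad2, by 0.68.

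Of 14 genes of cohesin and its regulators 3 (21.4%) rose and 2 fell, near the 13.3% and 13.7% of all genes. The rises included Sgo2a (shugoshin), which protects centromeric cohesin, at 1.93 and Esco2, which acetylates cohesin in S phase, at 1.09. The releasing factor Wapl fell by 0.21 and Pds5a fell by 0.23. The core subunits, named after their values were seen, did not pass, with Smc1a at -0.02, Smc3 at -0.08 and Rad21 at 0.07. The anaphase promoting complex with separase and securin had 9 of 19 higher. By smallest p these were led by the ubiquitin-conjugating enzyme Ube2c (1.05) and the subunit Anapc5 (0.38), while Pttg1 (securin) fell by 0.16 (SE 0.05, adjusted p = 0.0428), with overlapping groups.

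Of 22 regulators that act through the CHR, CCAAT and E2F motifs, 4 (18.2%) rose and 4 fell, near the shares of all genes (13.3% higher and 13.7% lower). Mybl1 (A-Myb), a relative of B-Myb, had the largest rise among the 145 further genes. It was 4.71, 4.96 and 5.07 in GFP and 8.06, 8.30 and 8.64 in ChREBP livers, with no overlap, and rose by 3.42 (SE 0.10, adjusted p = 7.7e-11 in limma). Rbl1 (p107) rose by 0.64, and the other rises of this group, named to complete the count, were Mybl2 (B-Myb) at 0.44 and Tfdp1 at 0.36. Rbbp4, a histone-binding subunit of DREAM, fell by 0.44 and Rbl2 (p130), the pocket protein of DREAM in resting cells, fell by 0.29. The remaining falls were those of Tfdp2 (-0.30) and Nfyb (-0.23). The CHR letters stood in 37.0% of the 81 promoter windows of further mitosis genes that rose (68 genes matched). They stood in 23.8% of the 63 windows of those that did not (50 genes), against 17.9% of all windows. CCAAT or ATTGG stood in 58.0% and 54.0% (37.4% of all windows), and CACGTG in 4.94% and 14.3% (7.15% of all). These shares were not tested.

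**Figure D4:**
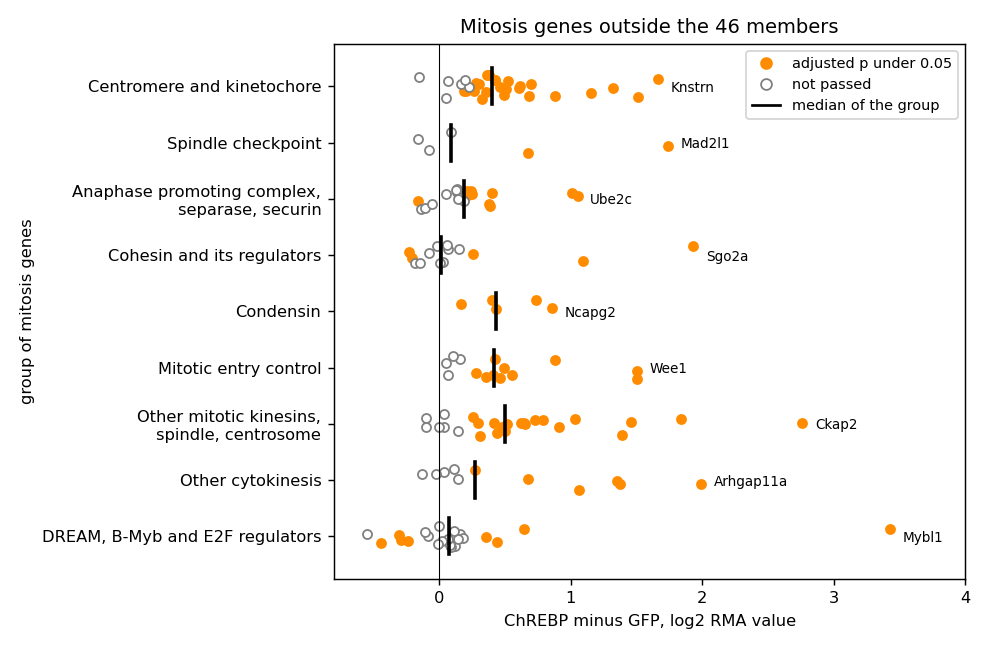
Points are the differences ChREBP minus GFP (RMA value, log2) of the 145 further mitosis genes by group, filled where the adjusted p was under 0.05, with a black bar for the group median and the name of the gene with the largest difference in each group. Mybl1 (3.42) and Ckap2 (2.76) stand farthest right, and the medians of the cohesin, DREAM and checkpoint groups lie near 0.

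Genes of the neighbouring phases of the cycle were also measured. In the DNA replication list 20 of 29 (69.0%) rose and 1 fell, with a median of 0.37, while 13.3% of all genes rose and 13.7% fell. Mcm6, a subunit of the replicative helicase, rose by 1.24 (SE 0.07, adjusted p = 1.65e-08 in limma), and Gins2 by 0.99. The fall was that of Mcm10 (-0.59, adjusted p = 1.42e-06), a replication initiation factor named to complete the count. In the list of G1 cyclins, kinases and inhibitors 7 of 15 (46.7%) rose and 0 fell, with a median of 0.24. Ccnd1 (cyclin D1) led at 1.12, with Ccne2 at 0.81. The other rises, named to complete the count, were Cdkn2c (0.78), Ccne1 (0.55), Rb1 (0.45), Cdk2 (0.26) and Cdkn2d (0.25). Since Cdkn2c and Cdkn2d are inhibitors, the count mixes drivers of the cycle with brakes on it. Cdkn1a, a further inhibitor of the list, was not measured. The lists were not tested against each other.

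**Figure D5:**
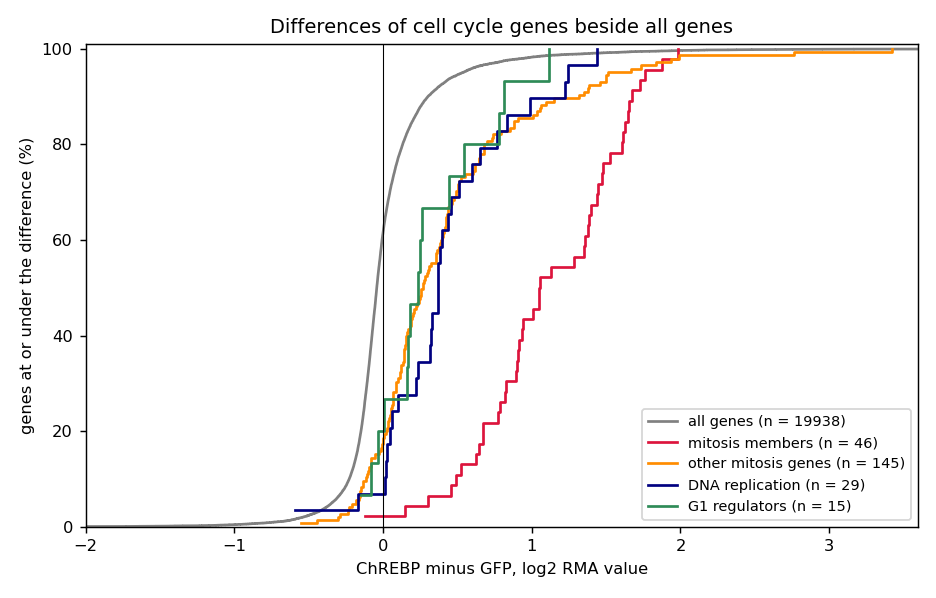
Each curve gives the percentage of genes (vertical axis) at or under a difference ChREBP minus GFP (horizontal axis, RMA value, log2, shown from -2 to 3.6) for all 19938 genes, the 46 mitosis genes, 145 further mitosis genes, 29 DNA replication genes and 15 G1 genes. The curve of the 46 lies to the right of the others over most of its length, with a median of 1.05 against 0.27, 0.37, 0.24 and -0.04.

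The curves of the differences place all 4 cell cycle lists to the right of the curve of all genes. Median centring of the arrays moved the median of all genes from -0.04 to -0.10 and the calls over all genes from 2645 higher and 2730 lower to 2194 and 5595. Repeated quantile normalization gave 2555 and 3580. Under both, 44 of the 46 mitosis genes rose.

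Markers of several cell types moved with the mitosis genes, and their part in the result was not tested. Levels of a list were summed on the linear scale of each array. Among all genes, 13.3% rose and 13.7% fell. T and NK cell markers rose in 9 of 14, including Gzma (1.85) and Cd3g (1.07), and their sum was 652 to 883 in GFP and 1006 to 1780 in ChREBP livers. On ChREBP arrays 1 to 6 this sum was 1006, 1224, 1153, 1070, 1780 and 1267. The medians of the mitosis genes over the GFP mean on those arrays were 1.10, 1.30, 1.22, 1.03, 1.01 and 1.04. The relation of this sum, or of the sums that follow, to these medians was not tested. Macrophage markers rose in 7 and fell in 4 of 15, with Gpnmb at 2.17 and the Kupffer cell gene Timd4 at -1.59. Sums were 5441 to 6438 in GFP and 6399 to 8300 in ChREBP livers, overlapping. On ChREBP arrays 1 to 6 they were 6399, 7768, 6866, 6466, 8300 and 6763. Hepatocyte markers fell in 8 of 9, with Tat at -0.63 and Fgb at -0.25. Sums were 52676 to 56689 in GFP and 42749 to 48440 in ChREBP livers. On ChREBP arrays 1 to 6 they were 47569.5, 42749, 46901, 46254, 43780 and 48440. Erythroid markers fell in 2 of 9, with Alas2 at -1.43 and Hemgn at -0.18, while 0 rose and 7 did not pass. Their sums were 950 to 1094 and 509 to 663 and mainly follow Alas2. In GFP livers it was the brightest of the list at 9.32, with Slc4a1 next at 6.25.

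The other marker lists had 0 to 2 members higher. The shares higher of dendritic cell (12.5%), endothelial (10%) and stellate cell markers (18.2%) lay near the 13.3% of all genes. Of B and plasma cell markers 0 of 9 rose and 1, Sdc1 (-0.21), fell, and 0 of 10 neutrophil markers passed in either direction. Dendritic cell markers rose in 1 of 8 (Itgax, 0.94), endothelial markers in 1 of 10 (Lyve1, 0.57), cholangiocyte markers in 2 of 5 (Cftr, 0.40, and Epcam, 0.52), and stellate cell markers in 2 of 11 (Timp1, 0.59, and Pdgfrb, 0.25), with 1 lower (Reln, -0.36). Adipocyte markers rose in 2 of 6, Lpl by 1.35 and Fabp4 by 1.37, and 1, Plin1 (-0.22), fell. Lep, Retn and Adipoq did not pass. Adipoq, named for its spread, differed by -0.04 but ran from 5.05 to 8.52 in GFP and from 5.01 to 9.02 in ChREBP livers. It was highest on GFP 4 (8.52) and GFP 6 (8.32) among controls and on ChREBP 6 (9.02), ChREBP 5 (7.25) and ChREBP 4 (6.97). Its relation to the mitosis genes was not tested. Pancreatic acinar markers summed to 40105 on ChREBP 4, 35266 on ChREBP 5, 1740 on ChREBP 2 and 883 on ChREBP 6. The sums were 575.5 on ChREBP 1, 567 on ChREBP 3 and 617 to 692 in GFP livers, and 1 of 8 markers passed (Cpb1, 3.69). Without ChREBP 4 and ChREBP 5, 44 mitosis genes rose and the median difference was 1.17. ChREBP 5 also stood apart in the sums of neutrophil markers (1466 against 516 to 799 on the other arrays), endothelial markers (4512 against 2390.5 to 3150.3) and cholangiocyte markers (793 against 414 to 559). Its sums of T and NK cell markers (1780 against 652 to 1267) and macrophage markers (8300 against 5441 to 7768) were the highest as well. Without ChREBP 5 alone, 44 mitosis genes rose and the median difference was 1.10. RMA has no zero level, so no marker could be called absent.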

How the data were processed

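Total liver RNA of 12 mice was amplified and biotin-labelled, and hybridised to Affymetrix mouse gene arrays, 1 per mouse. The log2 values deposited by the authors were used. Per the submitters' processing notes RMA and Partek were used, with no version given. RMA corrects background, quantile-normalizes the arrays and summarises probes by median polish. The study's array methods describe Phf2 arrays and served as a guide to the test. Of 35556 rows, 21789 carried 1 gene symbol, 1621 several and 12146 none here. Symbols were updated through the Entrez ID (21698 rows matched in the RefSeq table of GRCm38.p6), giving 19938 genes, each by its brightest row. All 12 value columns were used (0 unused). Detection calls and array batches were not used here, and the number of arrays limits the precision.

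A linear model with no covariates was fitted to all 12 arrays (limma 3.58.1, R 4.3.3) and tested two-sided with eBayes, with Benjamini-Hochberg adjustment over all genes. The procedure was tested on simulated data. The members and lists were chosen with earlier results of these data known, so lists are described by counts and medians without a test. Values by array are given for the 1 or 2 members of each role with the smallest p, for Mki67, Cdk1 and Foxm1 and for members that did not pass. Of further mitosis genes, the 2 with the smallest p in each direction are named per group, of the replication, G1 and marker lists the 2 with the smallest p that passed, and others where they complete a count. Alternatives changed the normalization (median centring, or quantile normalization once more), the features (without the 25% dimmest genes, a mean over a gene's rows, or all rows tested), the model (moderation with a trend or robust, weights for arrays, plain analysis of variance, a replicate block) and the arrays left out. Motifs were searched on both strands of RefSeq promoter windows.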

Additional observations from a re-analysis of the deposited data

Results flagged for a closer look

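Single arrays were compared with the rest of their group for each of the 46 genes, 92 groups of 6 in all, where chance alone marks about 1 group in 20. 2 groups had an array apart. Birc5 was 8.623 on ChREBP 2 against 8.394 on the nearest array, a gap of 0.721 of the group's range. Kif20a was 6.665 on ChREBP 2 against 6.443, a gap of 0.673 of the range, and both gaps passed Dixon's critical value for 6 samples. Within its group ChREBP 2 was the highest array in 20 of the 46 genes and ChREBP 3 in 19.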

How the results depend on the processing

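Under 24 alternatives, 44 of the 46 mitosis genes were higher in all but one, where leaving out the 25% dimmest genes left 43 members to test and 41 higher. Their median difference ran from 1.00 to 1.17, and was highest without ChREBP 4 and ChREBP 5. With median centring 1 member (Ccnf, -0.18) and 1 G1 gene were lower, and with repeated quantile normalization 11 further mitosis genes were lower, against 7. Leaving out 1 array at a time gave 44 to 44 members higher, 0 to 0 lower, 44 to 44 without overlap, 38 to 40 past 1.5-fold, a median of 1.00 to 1.10, 78 to 82 further mitosis genes higher and 5 to 7 lower, 19 to 21 DNA replication genes higher, and 7 to 8 G1 genes higher with 0 to 0 lower. Of 1101 differences of single members over the alternatives, 1100 kept their direction and side of the threshold and 1 (Ccnf) came to pass. With the replicate block 44 members were higher, with a median of 1.05, and 79 further mitosis genes were higher and 6 lower. Same-numbered arrays correlated at -0.06 to 0.25 in their deviations, over 0.1 in 1 of 6 pairs, and 1 of 6 ChREBP arrays correlated best with its own number, so the numbers were not taken to pair the mice. Detection calls were not used here, so how far the signals of the dim members lay above background is unknown.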
